A study of Canis lupus familiaris with 8 samples.

Results

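The miR-30 family was examined in the serum of Doberman Pinschers with and without dilated cardiomyopathy (DCM), a disease in which the heart chambers widen and the muscle contracts poorly. Every name on the miRNA array was taken that reads miR-30a, miR-30b, miR-30c, miR-30d or miR-30e after its species prefix, star names excluded. This gave 9 of the 1224 names on the array, 5 listed as canine (cfa-miR-30a, cfa-miR-30b, cfa-miR-30c, cfa-miR-30d and cfa-miR-30e) and 4 listed as murine (mmu-miR-30a, mmu-miR-30c, mmu-miR-30d and mmu-miR-30e). All 9 were detected, as were 438 names in all, where detected means that 1 or more features (printed spots) of a name rose well above background on 2 or more arrays from the same group. The rule reads names only and uses no measured value.

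Serum from clotted blood of 8 client-owned adult dogs, described in the labels as 7 to 11 years old, was measured on 8 one-colour arrays that shared a slide. The DCM group held 4 dogs in the occult stage of the disease, all under treatment with heart drugs (pimobendan, an ACE inhibitor and an antiarrhythmic drug), on the arrays labelled DoCM5 to DoCM8. The control group held 4 healthy dogs of the same breed without therapy, on the arrays labelled Con1 to Con4. Disease and therapy therefore cannot be told apart, and neither can group and row of the slide, since the DCM arrays filled 1 row and the control arrays the other. Both sexes occurred in both groups, and the study describes a dog with DCM as young. Serum holds RNA released by many tissues and blood cells, so release from fewer cells and less RNA per cell cannot be told apart.

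The members of the miR-30 family share the seed, the stretch near the 5′ end through which a miRNA recognizes its target mRNAs, and differ mainly toward the 3′ end. They are abundant in heart muscle cells, where miR-30 together with miR-133 is known to restrain connective tissue growth factor, a driver of fibrosis, and the family is also known to act on mitochondrial fission and on autophagy. A star marks the passenger strand of the same hairpin, which is usually the less abundant strand. In the canine gene table of the assembly UU_Cfam_GSD_1.0 the 6 genes of the family stand as 3 neighbouring pairs, MIR30C-2 beside MIR30A, MIR30B beside MIR30D, and MIR30C-1 beside MIR30E. The mature miR-30c is therefore encoded beside both miR-30a and miR-30e, and its signal does not separate its 2 genes.

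Between 10817 and 14000 of the 48960 features per array were well above background, and no feature of a miR-30 name was saturated. The array labelled DoCM5 stood apart: over the 438 detected names its median Pearson correlation with the other arrays was 0.924, against 0.957 to 0.968 for the other 7 (a description across names, which are not independent). The study left the sample named DoCM8 out of its array analysis, as standing apart from the others and having intensified signals, and the set without the array of that label was the main setting here. Among the deposited arrays that label had the highest of these correlations, 0.968, whereas DoCM5 had the lowest and also the brightest raw signals. The deposited labels may therefore not match the study's numbering, in which case the main setting leaves out a different dog than the study did. Which array the study left out cannot be settled from the labels, and the comparisons between the groups are given also over all 8 arrays and without DoCM5. The serum markers were in place, with all 6 of the serum list detected (such as miR-451 and miR-16, which are abundant in red blood cells), and 4 of 7 heart and muscle miRNAs were detected, cfa-miR-1, cfa-miR-133b, cfa-miR-206 and cfa-miR-499.

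The canine names differed widely in signal. On the normalized log2-like scale (glog2, from a variance-stabilizing calibration over the 8 arrays), cfa-miR-30b was the brightest canine name, with 8.18, 7.75, 7.63 and 7.90 on DoCM5 to DoCM8 and 7.89, 7.70, 7.99 and 7.71 on Con1 to Con4. It was also the steadiest, with an SD of 0.18 over 8 arrays, and its groups overlapped. The values of cfa-miR-30d were 6.61, 5.63, 5.63 and 5.69 on the DCM arrays and 6.12, 6.24, 6.14 and 6.04 on the control arrays. DoCM5 lay above every control array and the other 3 DCM arrays below every control array. The values of cfa-miR-30c were 6.72, 4.43, 5.33 and 5.02 on the DCM arrays and 5.86, 5.82, 5.42 and 6.52 on the control arrays. DoCM5 was again the highest of the 8 and the other 3 DCM arrays the 3 lowest, and the SD over 8 arrays, 0.76, was the widest of the 9 miR-30 names.

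The other canine names were dim. The glog2 values of cfa-miR-30e were 4.41, 3.17, 3.17 and 3.44 on the DCM arrays and 3.42, 3.09, 3.41 and 3.05 on the control arrays, with DoCM5 well above the other 7, which overlapped. Those of cfa-miR-30a were 2.56, 1.44, 2.90 and 2.09 on the DCM arrays and 2.71, 2.77, 1.78 and 1.85 on the control arrays and spread widely within both groups.

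Of the murine names, mmu-miR-30e was the brightest, with glog2 values of 8.72, 7.32, 7.82 and 8.15 on the DCM arrays and 8.22, 7.62, 8.11 and 8.10 on the control arrays. The values of mmu-miR-30c were 7.93, 6.54, 6.92 and 6.77 on the DCM arrays and 7.13, 6.98, 6.90 and 7.25 on the control arrays. For both names DoCM5 was the highest array and DoCM6 the lowest. The values of mmu-miR-30d were 6.71, 6.40, 6.24 and 6.21 on the DCM arrays and 6.66, 6.70, 6.62 and 6.36 on the control arrays. Those of mmu-miR-30a were 5.59, 5.26, 6.13 and 5.92 on the DCM arrays and 5.92, 6.26, 5.47 and 5.82 on the control arrays. For these last names the groups overlapped, and mmu-miR-30a was the only murine name whose highest array was not DoCM5 but Con2.

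**Figure D1:**
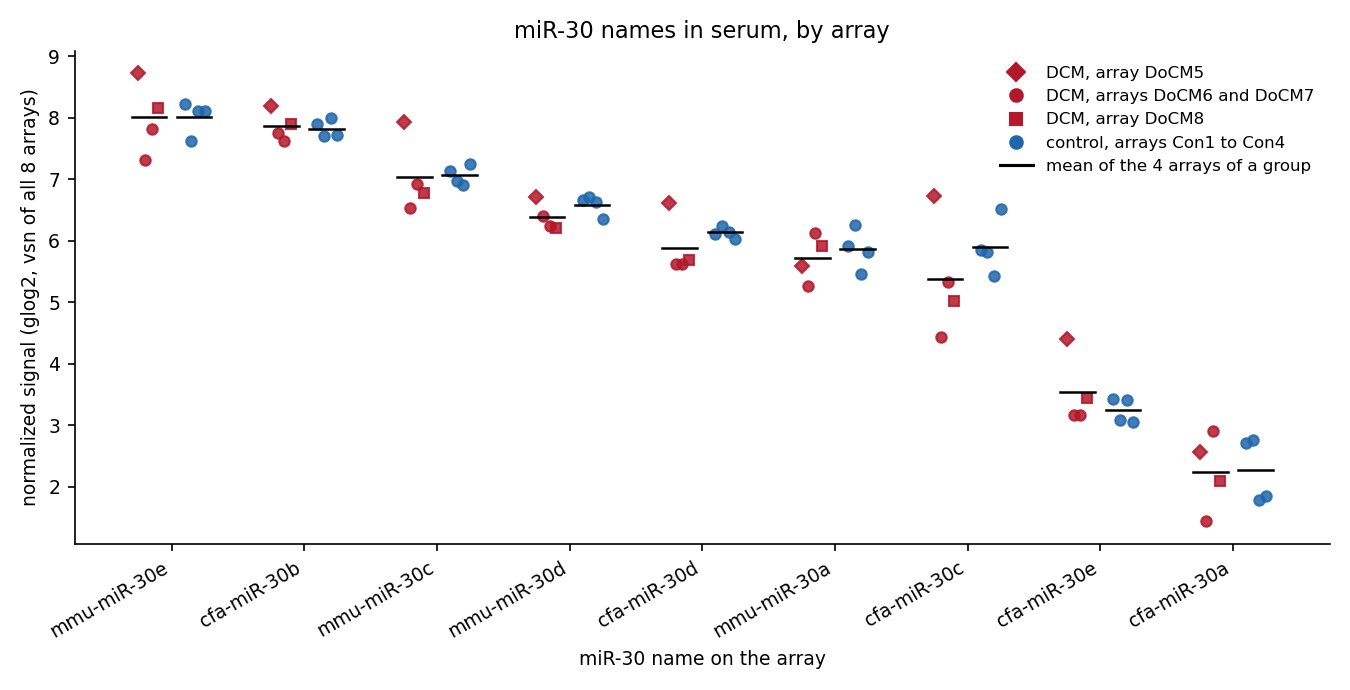
Normalized signal (glog2, vertical axis) of the 9 miR-30 names (horizontal axis, from the highest to the lowest mean), with 1 point per array and a line at the mean of the 4 arrays of a group, DCM in red and control in blue. The array labelled DoCM5 (diamonds) was the highest of the 8 for 7 of the 9 names, and for cfa-miR-30c and cfa-miR-30d the other 3 DCM arrays lay below all control arrays.

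Ordered by mean glog2 over the 8 arrays, the canine names ran from cfa-miR-30b (7.84) through cfa-miR-30d (6.01), cfa-miR-30c (5.64) and cfa-miR-30e (3.39) to cfa-miR-30a (2.26). This is an order of signals and not of amounts, since each probe has its own brightness. Signal of cfa-miR-30b exceeded that of cfa-miR-30d on 8 of 8 arrays, by 1.83 ± 0.27 (SD, n = 8 arrays). The names cfa-miR-30d and cfa-miR-30c did not differ beyond their spread, at 0.37 ± 0.52 (SD, n = 8 arrays) with cfa-miR-30d higher on 6 arrays. The steps from cfa-miR-30c to cfa-miR-30e, 2.25 ± 0.68 (SD, n = 8), and from cfa-miR-30e to cfa-miR-30a, 1.13 ± 0.63 (SD, n = 8), held on all 8 arrays. In the murine listing the order was mmu-miR-30e (8.01), mmu-miR-30c (7.05), mmu-miR-30d (6.49) and mmu-miR-30a (5.79), and each step, of 0.96, 0.56 and 0.69, held on 8 of 8 arrays. These steps compare different probes and say nothing of which member is more abundant.

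The same miRNA thus took different places under its canine and its murine listing, which are read by different probes. The murine name was the brighter one on 8 of 8 arrays for each of the 4 shared members. The gap was 4.62 ± 0.28 for miR-30e, 3.53 ± 0.35 for miR-30a, 1.41 ± 0.42 for miR-30c and 0.48 ± 0.20 for miR-30d (glog2 difference, SD, n = 8 arrays). The gaps for miR-30e and miR-30a are not exact, since their canine names were dim, and were 4.37 and 3.09 without DoCM5. For miR-30e the canine name was next to last and the murine name first in the order of signals. The gap for miR-30c was 1.67 ± 0.37 (SD, n = 4 dogs) with DCM and 1.16 ± 0.32 (SD, n = 4 dogs) without, which differ by 0.51 (exact permutation test over 8 arrays, two-sided p = 0.0857). The difference was 0.48 without DoCM8 (exact permutation p = 0.171) and 0.62 without DoCM5 (exact permutation p = 0.0571). For miR-30e the gap was smaller with DCM, by -0.41 without DoCM8 (exact permutation p = 0.0857), -0.31 over all 8 arrays (exact permutation p = 0.171) and -0.25 without DoCM5 (exact permutation p = 0.314). The values of cfa-miR-30e include 2 features kept through the DCM arrays alone, and those of cfa-miR-30c 1 feature kept through the control arrays alone. The tests of both gaps therefore cannot decide on a difference. Whether the probes of one name also bind other members was not tested, so a difference between the listings cannot be assigned to either.

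Detection was complete for most members. All 40 features of cfa-miR-30b, cfa-miR-30d, mmu-miR-30c, mmu-miR-30d and mmu-miR-30e were well above background on each of the 8 arrays, and mmu-miR-30a missed 100% only on DoCM6, with 97.5%. For cfa-miR-30c the share of features well above background was 100%, 42.5%, 52.5% and 65% on DoCM5 to DoCM8 and 65%, 65%, 70% and 67.5% on Con1 to Con4. The 4 control arrays lay close together, whereas the DCM arrays ran from the lowest to the highest share of all 8. Without DoCM8 the DCM mean differed from the control mean by -1.875 percentage points (exact permutation test, two-sided p = 0.943), with the same value over all 8 arrays (exact permutation p = 0.943), and without DoCM5 by -13.5 points (exact permutation p = 0.0857). Counted by the scanner's flag for a positive and significant signal instead, the difference without DoCM8 was -10.4 points (exact permutation p = 0.171).

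The share for cfa-miR-30e was 100%, 55%, 25% and 50% on the DCM arrays and 55%, 35%, 65% and 37.5% on the control arrays. DoCM5 lay above and DoCM7 below all control arrays. The groups differed by 11.9 points without DoCM8 (exact permutation p = 0.657) and by 9.38 points over all 8 arrays (exact permutation p = 0.657), with the sign turned to -4.79 points without DoCM5 (exact permutation p = 0.714). For cfa-miR-30a, the dimmest member, the share was 17.5%, 2.5%, 7.5% and 2.5% on the DCM arrays and 42.5%, 15%, 7.5% and 2.5% on the control arrays. The difference was -7.71 points without DoCM8 (exact permutation p = 0.686), -9.38 over all 8 arrays (exact permutation p = 0.543) and -12.7 without DoCM5 (exact permutation p = 0.371), and did not exceed the spread between arrays. By the rule that at least 50% of a name's kept features be well above background, cfa-miR-30a was called on 1 of 4 DCM and 2 of 4 control arrays, and cfa-miR-30e on 3 and 4. The kept features were themselves selected by this flag, so these counts cannot decide on a difference between the groups.

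The passenger strands lay at the edge of detection. Of the 5 star names on the array, mmu-miR-30a*, mmu-miR-30c-1* and mmu-miR-30c-2* were detected, with at most 52.5% of their features well above background on any array, whereas mmu-miR-30b* and mmu-miR-30d* kept no feature. The 2 star names of miR-30c were both brightest on DoCM6 and Con3. The glog2 values of mmu-miR-30c-1* were 2.65, 3.34, 1.77 and 2.08 on the DCM arrays and 2.35, 3.03, 3.35 and 2.42 on the control arrays, and those of mmu-miR-30c-2* were 2.39, 3.23, 2.23 and 2.30 and 2.35, 2.36, 2.88 and 2.49. DoCM6 was thus among the highest arrays for both passenger strands of miR-30c and the lowest of all 8 for cfa-miR-30c and mmu-miR-30c. None of the 3 detected star names passed without DoCM8 (exact permutation p = 0.657 to 0.743), over all 8 arrays (exact permutation p = 0.429 to 0.943) or without DoCM5 (exact permutation p = 0.457 to 1). The shares of all 438 names that passed in these sets were 2.74%, 4.11% and 4.34%. The name mmu-miR-384-5p, which is classed with the miR-30 seed, kept no feature.

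**Figure D2:**
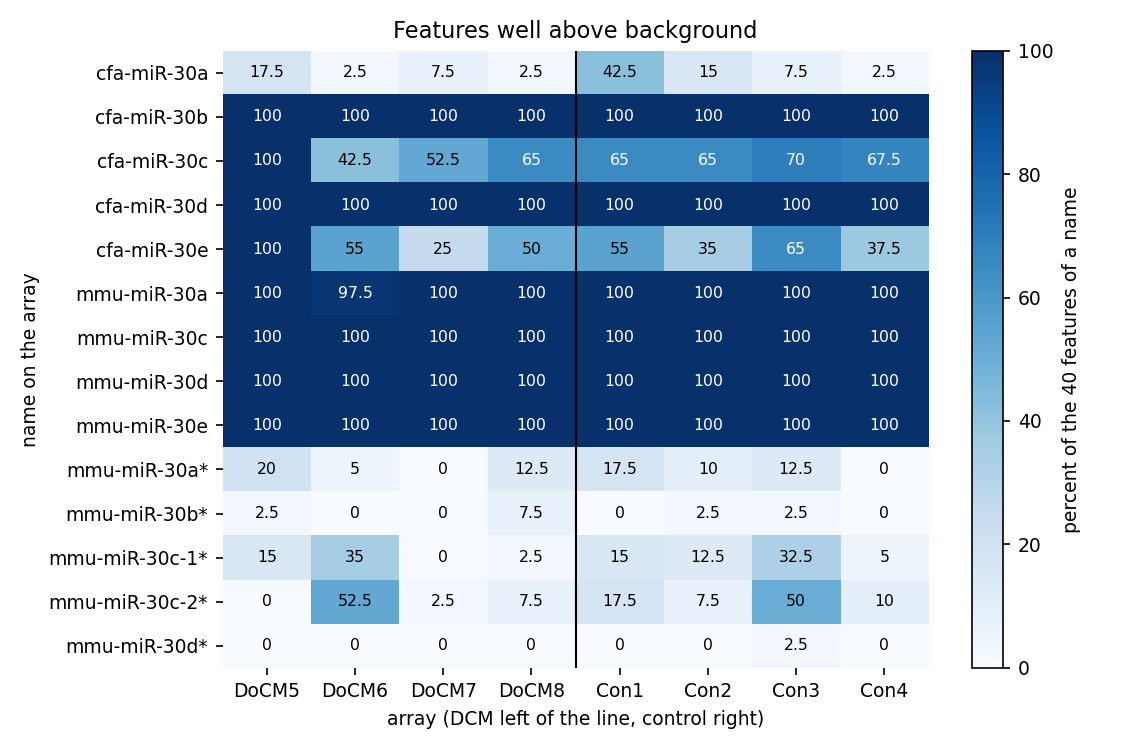
Percent of the 40 features of a name that were well above background (shade and printed number) for the miR-30 names and their star names (rows) on each array (columns, DCM left and control right of the line). Most names of the family stand at 100% throughout, cfa-miR-30c and cfa-miR-30e reached 100% only on DoCM5, and the star names stayed at 52.5% or less.

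The first question of the design was whether DCM and control serum differed, and for cfa-miR-30c the answer depended on which array was left out. None of the 9 miR-30 names passed without the array labelled DoCM8, at a p below 0.05 with a fold change (FC) over 1.5, where 2.74% of all 438 names passed (12 names) and 0 passed after Benjamini-Hochberg adjustment (12 had an unadjusted p under 0.05 in limma). Without DoCM8 the largest difference was that of cfa-miR-30c, with 5.51 ± 1.15 (SD, n = 3 DCM arrays) against 5.95 ± 0.45 (SD, n = 4 control arrays). Its log2 fold change was -0.43 with a standard error of 0.50 (limma, p = 0.408, adjusted p = 0.997, exact permutation test, two-sided p = 0.486). The next was cfa-miR-30e at 0.33 with a standard error of 0.38 (limma, p = 0.400, exact permutation p = 0.457), which lay in the other direction. The 95% intervals reached from -1.53 to 0.67 for cfa-miR-30c and from -0.50 to 1.16 for cfa-miR-30e. With the fold limit at 0.58 on the log2 scale, the first interval held changes past it in both directions and the second only an increase. For cfa-miR-30b, the most even member, the log2 difference was 0.0081 and the interval still ran from -0.68 to 0.69.

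The log2 differences of the remaining names without DoCM8 were 0.03 for cfa-miR-30a, -0.20 for cfa-miR-30d, -0.22 for mmu-miR-30a, 0.05 for mmu-miR-30c, -0.16 for mmu-miR-30d and -0.08 for mmu-miR-30e (limma, p between 0.536 and 0.950, exact permutation p between 0.343 and 1). By this fitted value 5 of the 9 names were lower in DCM serum, where 220 of the 438 detected names were, and the median of the 9 was -0.08 against -0.0032 over all 438. Over all 8 arrays 0 of the 9 names passed, where 4.11% of all names did (18 names), with log2 differences from -0.53 for cfa-miR-30c (limma, p = 0.261, exact permutation p = 0.343) to 0.30 for cfa-miR-30e (limma, p = 0.374, exact permutation p = 0.400). There 7 of the 9 were lower in DCM serum by fitted value, with a median of -0.03, and 219 of the 438 names. The sign of the differences for cfa-miR-30a, cfa-miR-30b and mmu-miR-30c turned with the set of arrays.

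Leaving out DoCM5 in place of DoCM8 changed the result for cfa-miR-30c. Its DCM mean was then 4.85 ± 0.43 (SD, n = 3) and its control mean 5.78 ± 0.45 (SD, n = 4), a log2 fold change of -0.93 with a standard error of 0.30 and a 95% interval from -1.60 to -0.26, or 1.90-fold lower in DCM serum (limma, p = 0.0123, adjusted p = 0.538, exact permutation test, two-sided p = 0.0571). In that set, calibrated without DoCM5, the lowest control array, at 5.29, lay only just above the highest DCM array, at 5.24. This was 1 pass among the 9 miR-30 names where 4.34% of all 438 names passed (19 names), and no name passed after adjustment (29 names had an unadjusted p under 0.05 in limma). In every set of arrays, 1 of the 27 kept features of cfa-miR-30c had passed the detection filter through the control arrays alone. Its differences are therefore partly tied to that filter, and its probes are given separately below.

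In the same set of arrays cfa-miR-30d separated the groups too, with 5.53 ± 0.014 (SD, n = 3 DCM arrays) against 5.91 to 6.14 on the 4 control arrays. The log2 fold change of -0.47 with a standard error of 0.17 corresponded to an FC of 1.38, below the limit of 1.5 (limma, p = 0.0204, adjusted p = 0.674; exact permutation test, two-sided p = 0.0286, the smallest that 3 against 4 arrays allow). Values of 2 of the 9 miR-30 names were thus lower on every DCM than on every control array, where 5.94% of all detected names were (26 names), and 8.68% were apart in either direction (38 names). Without DoCM8 and over all 8 arrays, 0 of the 9 names did not overlap, where 4.34% (19 names) and 2.74% (12 names) of all names did not.

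None of the other 7 names passed when DoCM5 was left out. The log2 differences were -0.31 for mmu-miR-30c (exact permutation p = 0.0857), -0.29 for mmu-miR-30d (exact permutation p = 0.0857), -0.25 for mmu-miR-30e (exact permutation p = 0.400), -0.10 for cfa-miR-30a, -0.09 for mmu-miR-30a, -0.06 for cfa-miR-30b and 0.0062 for cfa-miR-30e. By fitted value alone 8 of 9 names were lower in DCM serum, with a median of -0.25 against -0.0018 over all 438 names, of which 220 were lower. The 7 names other than cfa-miR-30c and cfa-miR-30d had unadjusted p-values of 0.135 (mmu-miR-30c) or more in that set (limma).

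**Figure D3:**
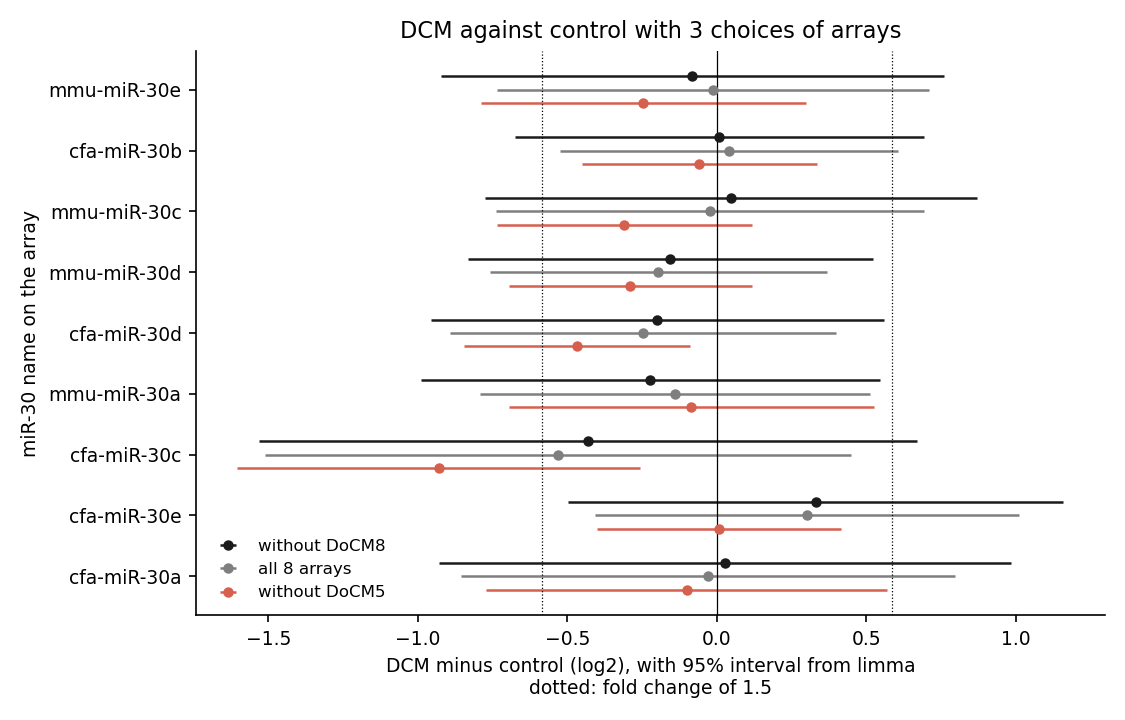
Log2 difference between DCM and control (horizontal axis, negative where DCM was lower) with its 95% interval from limma for each miR-30 name (vertical axis), without DoCM8 (black), over all 8 arrays (grey) and without DoCM5 (red), with dotted lines at a fold change of 1.5. Intervals without DoCM8 and over all 8 arrays span 0 for all 9 names, and without DoCM5 those of cfa-miR-30c (-1.60 to -0.26) and cfa-miR-30d (-0.85 to -0.09) do not.

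How far a single array decided these values was described through DoCM5. Among the DCM arrays it exceeded the mean of the other 3 by 1.79 for cfa-miR-30c, 1.19 for mmu-miR-30c, 1.15 for cfa-miR-30e, 0.96 for cfa-miR-30d and mmu-miR-30e, 0.42 for cfa-miR-30b, mmu-miR-30d and cfa-miR-30a, and -0.19 for mmu-miR-30a (glog2). The median of the 9 was 0.96, against -0.10 over all 438 detected names, and the excess of cfa-miR-30c was larger than that of 97.0% of these names. DoCM5 was the highest of the 8 arrays for 7 of the 9 miR-30 names and for 135 of the 438 names in all (30.8%). Its raw signals were also the brightest, with a median log2 signal of 5.09 over the detected names against 3.68 to 4.85 on the other arrays, and the part of this brightness in the miR-30 values was not tested.

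The probes behind cfa-miR-30c showed where its share of 65% to 70% on the control arrays came from. The 3 probes of this name covered 14, 13 and 13 features. The brightest gave background-subtracted signals of 426, 44.4, 45.6 and 52.7 on DoCM5 to DoCM8 and of 121, 71.1, 117 and 96.2 on Con1 to Con4, with every feature well above background. The middle probe gave 69.0, 5.19, 6.99 and 8.60 on the DCM arrays and 23.6, 13.3, 20.2 and 17.4 on the control arrays. It had all features above background on DoCM5, DoCM8 and the control arrays, but 30.8% on DoCM6 and 61.5% on DoCM7. The dimmest probe gave 15.1 on DoCM5 and at most 4.72 on any other array, and 1 of its 14 features was kept.

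After normalization without DoCM5 the log2 differences were -0.81 for the brightest probe of cfa-miR-30c (exact permutation p = 0.0571) and -0.999 for the middle one (exact permutation p = 0.0286), and in both the groups did not overlap. The single kept feature of the dimmest probe passed the detection filter through the control arrays alone, so its difference of -1.16, with overlapping groups, is tied to that filter and its test is void. Both probes of cfa-miR-30d likewise separated the groups, at -0.42 and -0.59 (exact permutation p = 0.0286 for each). Of the 2 probes of mmu-miR-30c, 1 separated them, at -0.39 (exact permutation p = 0.0286), and the other, at -0.34, did not (exact permutation p = 0.0857). Likewise 1 of the 2 probes of mmu-miR-30d separated them, at -0.30 (exact permutation p = 0.0571), and the other, at -0.28, did not (exact permutation p = 0.0857). In all, 6 of the 21 probes of miR-30 names were lower on every DCM than on every control array, where 5.54% of all 867 probes were (48 probes). Probes of a name share the same RNA and are not replicates of it.

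**Figure D4:**
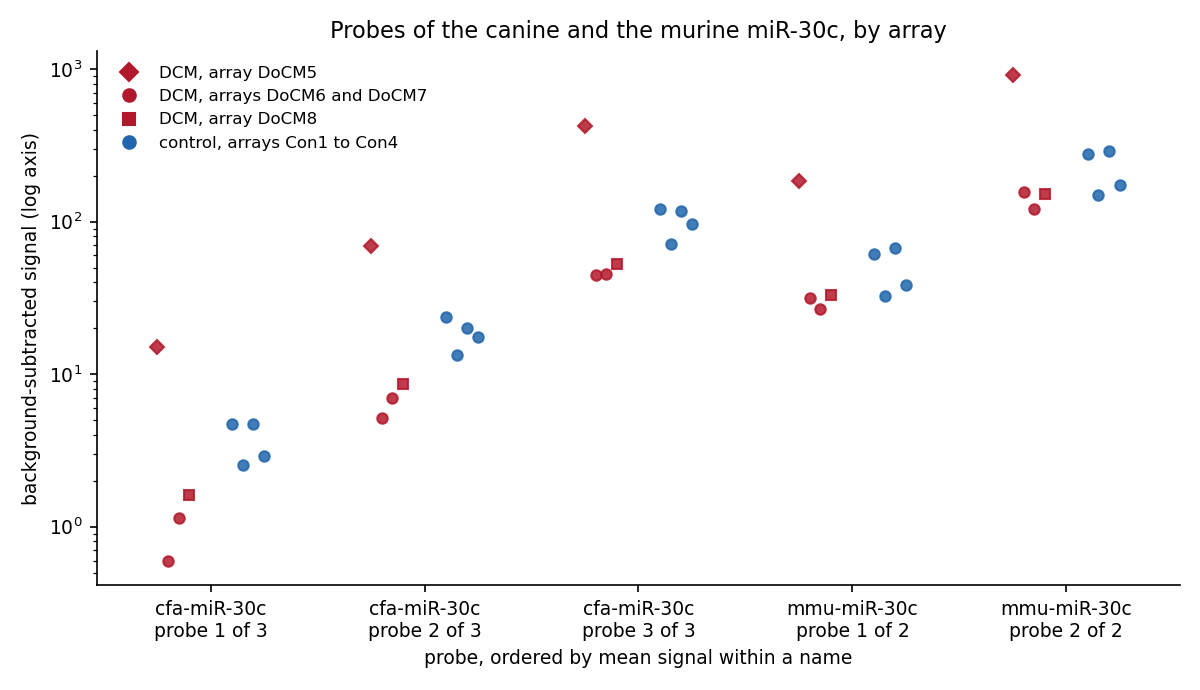
Background-subtracted signal before normalization (vertical axis, log scale) of the 3 probes of cfa-miR-30c and the 2 probes of mmu-miR-30c (horizontal axis, from dim to bright within a name), with 1 point per array. On all 5 probes DoCM5 (diamonds) is the brightest array, and on the 3 canine probes the other DCM arrays lie below the control arrays.

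The dim names rested on few features. The values of cfa-miR-30a came from 6 kept features, 5 of them of 1 probe, and those of cfa-miR-30e from 22, of which 20 belonged to the brighter of its 2 probes. The brighter probe of cfa-miR-30e overlapped between the groups without DoCM8, with a log2 difference of 0.30 (exact permutation p = 0.629). Its dimmer probe kept 2 of 20 features, and both passed the detection filter through the DCM arrays and not through the control arrays. Its difference of 0.77 without DoCM8 is therefore tied to that filter, and a test of it is void. The dimmer probe of cfa-miR-30a kept 1 feature, likewise through the DCM arrays alone, and a test of it is void for the same reason. Without DoCM8 it stood at 2.20, 2.36 and 6.66 on DoCM5, DoCM6 and DoCM7 and between 1.30 and 1.83 on the control arrays.

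A second question was whether 1 member moved apart from its family. This relation removes a shift only where it is equal for all members on the glog2 scale. That scale compresses dim values, so dim and bright names need not shift alike. Relative to the mean of the other 4 canine names on the same array, cfa-miR-30c differed by -0.47 in DCM serum without DoCM8 (exact permutation test, two-sided p = 0.371), by -0.55 over all 8 arrays (exact permutation p = 0.257) and by -0.77 without DoCM5 (exact permutation p = 0.0857). None of the 3 reached 0.05, and the values of cfa-miR-30c include 1 feature kept through the control arrays alone. For cfa-miR-30e the relative values were 0.48, 0.49 and 0.40 in the same order (exact permutation p = 0.114, 0.0571 and 0.114), higher in DCM serum in each set. They include the 2 features kept through the DCM arrays alone, so these tests cannot decide on a difference. With only features well above background on all arrays used, the value without DoCM8 was 0.36 (exact permutation p = 0.314). For cfa-miR-30d the relative values were -0.18, -0.19 and -0.20 (exact permutation p = 0.343, 0.2 and 0.2). For cfa-miR-30a they were 0.10, 0.08 and 0.26 (exact permutation p = 0.857, 0.857 and 0.429), and for cfa-miR-30b 0.08, 0.17 and 0.31 (exact permutation p = 0.771, 0.514 and 0.171). These 5 relations are not independent, since each name enters the mean of the others.

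The members did not follow a single pattern over the arrays. After each name was centred on its own mean, the root mean square (RMS) difference between the patterns of 2 members over the 8 arrays ran from 0.185 log2 units for cfa-miR-30b and mmu-miR-30d to 0.702 for cfa-miR-30c and mmu-miR-30a. The 3 pairs farthest apart all held cfa-miR-30c, with cfa-miR-30b at 0.667, cfa-miR-30a at 0.686 and mmu-miR-30a at 0.702. Names with little spread lie close to each other by this measure whatever their pattern, and names with a wide spread, such as cfa-miR-30c, tend to lie far off. Of the products of neighbouring genes, cfa-miR-30b and cfa-miR-30d differed by 0.249, cfa-miR-30c and cfa-miR-30e by 0.637, and cfa-miR-30c and cfa-miR-30a by 0.686. The 2 listings of miR-30c differed by 0.393.

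Outside the family, the detected names with the pattern nearest to each canine member were found by the same measure over the 8 arrays. Nearest to cfa-miR-30b was cfa-miR-140 at 0.0607, followed by mmu-miR-140* at 0.104 and mmu-miR-505-3p at 0.108. Nearest to cfa-miR-30e were cfa-let-7g at 0.105, mmu-miR-191* at 0.116 and cfa-let-7a at 0.13. Nearest to cfa-miR-30d were cfa-miR-197 at 0.168, cfa-miR-423a at 0.181 and cfa-miR-191 at 0.195. Nearest to cfa-miR-30a were cfa-miR-195 at 0.196, cfa-miR-152 at 0.250 and mmu-miR-195 at 0.256. For cfa-miR-30c the nearest names were cfa-miR-1306 at 0.308, cfa-let-7c at 0.319 and mmu-miR-93* at 0.324. This measure grows with a name's own spread, which was widest for cfa-miR-30c (SD 0.76), so the distances do not rank the members. For comparison, the median RMS difference to all detected names outside the family was between 0.493 and 0.863 for the 5 canine names, all arrays shared the same normalization, and nothing on function follows from the likeness.

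The nearest names of cfa-miR-30d included 2 miRNAs of the platelet list, miR-191 and miR-197. The mean glog2 of that list, whose 5 markers were all detected (miR-126, miR-223, miR-24, miR-191 and miR-197), was 8.19 on DoCM5, 7.66 to 7.74 on the other DCM arrays and 7.80 to 8.02 on the control arrays. Not all of its members shared this order of the arrays. For cfa-miR-191 the values were 11.98 on DoCM5, 11.01 to 11.14 on the other DCM arrays and 11.20 to 11.72 on the control arrays. For cfa-miR-197 they were 7.90, 6.76 to 7.10 and 7.04 to 7.39. In contrast, cfa-miR-223 was higher on DoCM6 than on any control array (at most 11.94), and cfa-miR-126 was 6.02 on DoCM8 and at most 5.76 on the control arrays. None of its names passed in either set of 7 arrays, where 2.74% of all 438 names did without DoCM8 and 4.34% without DoCM5. The means of the other lists ran from 10.62 to 10.92 in DCM and from 9.91 to 10.57 in control serum for the erythrocyte list (4 of 5 markers detected), from 7.28 to 7.52 and from 7.03 to 7.39 for the leukocyte list (6 of 6), from 3.92 to 4.74 and from 3.11 to 5.36 for the heart and muscle list (4 of 7), and from 11.13 to 11.51 and from 11.21 to 11.44 for the serum list (6 of 6). Of the 5 detected names of the erythrocyte list and the 8 of the leukocyte list, 1 each passed without DoCM8, mmu-miR-144 and mmu-miR-142-3p. Without DoCM5 also 1 each passed, beside the same 2.74% and 4.34% of all names. The serum list had none without DoCM8 and 1 without DoCM5, cfa-miR-21 at a log2 difference of 0.75, and the heart and muscle list none in either set. The part of platelet or other blood cell RNA in the miR-30 values was not tested.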

How the data were processed

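Serum miRNA of 4 Dobermans with DCM and 4 healthy Dobermans was measured on one-colour Agilent arrays. The authors deposited for each feature an intensity that Agilent Feature Extraction 10.7.3.1 had background-subtracted and not normalized between arrays, with detection and outlier flags as other columns. A series table held the same intensities.

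Control features and outlier-flagged features were left out, except where all kept features of a name were flagged. A feature was kept when well above background in at least 2 of 4 arrays of a group. Mean signals per name were calibrated with an own implementation of the vsn model (arsinh transform with least trimmed squares at the 0.9 quantile, in 5 slices and 7 iterations), separately for each set of arrays. All 438 detected names were fitted in limma 3.58.1 (R 4.3.3), with a limit of p under 0.05 and FC over 1.5 and Benjamini-Hochberg adjustment. The fit was run on simulated data with an equal spread for all names and changes larger than those of the miR-30 names. That run does not show how well differences of the miR-30 size are found. Exact permutation tests over arrays were two-sided. Values per array in the text come from the calibration of all 8 arrays, except where the paragraph places them in a set of 7. The labels describe each array as a separate dog, and the number of arrays limits the precision.

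The members and lists were chosen with earlier results of these data known. Named were the miR-30 names, their star names, the 3 nearest names of each canine member, and the marker lists. A search for further names with the same seed was not run here, and the names classed with miR-384 were looked up by name. Alternatives covered the arrays used, normalization, signal column, filter, averaging over features, flags, slide column and each array left out. Figures used matplotlib 3.10.9, pandas 2.3.3 and numpy 2.4.6, and exact tests scipy 1.17.1 under Python 3.11.15.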

Additional observations from a re-analysis of the deposited data

Results flagged for a closer look

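Of 36 groups of 4 arrays for the 9 miR-30 names (glog2 values and shares of features in each group), 11 had equal values throughout and could not show an array apart. Of the other 25, 2 had an array far from the other 3, where chance flags about 1 in 20, or 1.25. The glog2 value of cfa-miR-30d on DoCM5 was 6.61 and those of the other DCM arrays 5.63 to 5.69, a gap of 0.94 of the whole range. The share of features of mmu-miR-30a well above background on DoCM6 was 97.5% and 100% on the other DCM arrays, which is 1 feature of 40. Where the other arrays are tied, any differing value is flagged, so the rate of 1 in 20 does not apply to this flag.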

How the results depend on the processing

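Over 261 recomputed results, not counting arrays left out in turn, 223 kept their direction and their side of the limits, 30 turned sign, 1 newly passed and 7 counts moved by over 1.5 times, and the cause was not tested. These include the series table, which held the same intensities as the main setting and could not differ from it. They also include shares that were complete on every array, and relations between members that are equal under both percentile scalings. The number that kept their direction is therefore no measure of robustness. The negative sign of cfa-miR-30c held in 14 of 14 alternatives, the series table among them, from -0.05 with scaling to the 75th percentile of all names to -1.44 with the median over features. It turned to 0.13 when DoCM6 was left out of the 7 arrays. The count of passing names was 12 of 438 (6 higher, 6 lower), and it was 19 without DoCM5. It was 23 (2 higher, 21 lower) with scaling to the 75th percentile of detected names, where 1 passed after adjustment. With normexp on the median signal followed by quantile normalization it was 2 (where 12 had p under 0.05 in limma). It was 44 of 1224 names with no filter on dim features and 7 of 349 with only names that kept at least 50% of their features. It was split 4 higher and 7 lower with the 75th percentile of all names and 4 higher and 8 lower with quantile normalization. The 2 percentile scalings moved the median of all names by -0.25 and 0.11, so the values below include those shifts.

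Without DoCM5, 1 miR-30 name passed, cfa-miR-30c at -0.93, and the sign turned for cfa-miR-30a (-0.10), cfa-miR-30b (-0.059), mmu-miR-30c (-0.31) and the share of cfa-miR-30e (-4.79 points). Without DoCM8 and with the positive and significant flag, that share differed by -1.67 points and that of cfa-miR-30c by -10.4. Over all 8 arrays cfa-miR-30a (-0.030) and mmu-miR-30c (-0.023) turned. With the 75th percentile of all names the values were -0.19 for cfa-miR-30a, 0.17 for cfa-miR-30d, 0.12 for mmu-miR-30a, 0.21 for mmu-miR-30d and 0.30 for mmu-miR-30e, and cfa-miR-30a stood at -0.55 with that of detected names and at -0.025 with normexp. With no filter they were -0.34 for cfa-miR-30a, 0.024 for cfa-miR-30d, 0.067 for mmu-miR-30d and 0.16 for mmu-miR-30e. For cfa-miR-30b the value was -0.060 with flagged features kept and -0.090 with the mean per probe first, an alternative chosen after seeing the data. These settings gave 0.61 and 1.02 for cfa-miR-30a, and the median over features gave 0.71 for mmu-miR-30c. Against the other canine names, cfa-miR-30a turned to -0.45 with both percentile scalings, -0.0082 with normexp and -0.46 with no filter, and stood at 1.10 with the mean per probe first, 0.69 with flagged features kept and 0.48 with the median over features, where cfa-miR-30c was -1.42. The relation turned for cfa-miR-30b to -0.15 with flagged features kept and -0.29 with the mean per probe first, and for cfa-miR-30d to 0.00023 with both percentile scalings.

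Leaving out each array of the 7 in turn gave 10 to 30 passing names, 0 to 1 miR-30 names (cfa-miR-30c, without DoCM5) and 0 after adjustment. Ranges were -0.32 to 0.45 for cfa-miR-30a, -0.13 to 0.17 for cfa-miR-30b, -0.97 to 0.13 for cfa-miR-30c, -0.49 to 0.0060 for cfa-miR-30d, -0.063 to 0.59 for cfa-miR-30e, -0.43 to -0.00085 for mmu-miR-30a, -0.32 to 0.37 for mmu-miR-30c, -0.25 to -0.0094 for mmu-miR-30d and -0.44 to 0.26 for mmu-miR-30e. Against the other canine names they were -0.43 to 0.34 for cfa-miR-30a, -0.19 to 0.27 for cfa-miR-30b, -0.78 to -0.14 for cfa-miR-30c, -0.31 to -0.03 for cfa-miR-30d and 0.35 to 0.71 for cfa-miR-30e. Shares moved between -12.5 and 0.833 points for cfa-miR-30a, -19.4 and 9.38 for cfa-miR-30c and -8.12 and 29.4 for cfa-miR-30e. No paired analysis was possible because DCM and control arrays carry different replicate numbers and no label pairs the dogs. With the slide column, a position and not a pairing of dogs, as a block, 13 names passed, cfa-miR-30a was -0.11 and cfa-miR-30b -0.032, and the relation to the other canine names was not run with it. Signals near background limit cfa-miR-30a and cfa-miR-30e, since the glog2 scale compresses dim values.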
